A study of Mus musculus with 12 samples.

Results

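The genes described here are 10 receptor chains that pass cytokine signals to JAK kinases and STAT transcription factors: Osmr, Il6st, Lifr, Il6ra, Ifnar1, Ifnar2, Ifngr1, Csf2rb, Il4ra and Il13ra1. They were taken by name, and they are 10 of the 18193 genes that the arrays measured through a probe set of a single gene. Transcript levels came from MEFs, which are fibroblasts cultured from mouse embryos and form connective tissue in the body, all of strain C57BL/6. The 6 groups were S5 MEFs with growth hormone, S5 MEFs without stimulation, KO MEFs with growth hormone, KO MEFs without stimulation, WT MEFs with growth hormone and WT MEFs without stimulation, with 2 biological duplicates each. WT is wild type, KO is Stat5-null, and S5 cells are Stat5-null MEFs into which a retrovirus carried a STAT5A vector. The hormone was given for 120 minutes. The labels name no group with a vehicle or an empty vector and 1 set of cells for each genotype, so genotype and cell preparation cannot be told apart. The labels do not say whether duplicates came from separate embryos or cultures, and p-values measure the spread between these arrays.

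Cytokine receptors of this class have no kinase of their own. Ligand binding brings receptor chains together, the JAK kinases bound to their tails become active, and STAT proteins dock on the phosphorylated tails, pair up and enter the nucleus. The chains fall into families: those around gp130 (interleukin-6, oncostatin M and LIF), the interferon receptors, the common beta chain (GM-CSF and its relatives), and the type I and type II interleukin-4 receptors, of which interleukin-13 uses the type II form. Growth hormone itself acts through a separate receptor of the same class, Ghr, which uses JAK2 and mainly STAT5. Fibroblasts are known to answer oncostatin M, LIF, interferons and interleukin-4, while the common beta chain is best known from blood cells.

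The values are log2 expression values, in which 1 unit is a doubling, and values below 4 formed a low mode in which differences are compressed. The median per array lay between 2.86 and 3.02. Labels were checked first on the deleted genes: a Stat5a probe set lay between 2.34 and 2.42 on S5 arrays and between 2.38 and 2.47 on KO arrays, against 11.45 to 12.39 on WT arrays. Another Stat5a probe set lay between 9.04 and 9.90 on S5 arrays, between 2.19 and 2.25 on KO arrays and between 2.23 and 2.38 on WT arrays, so it was above the low mode on S5 arrays only. Fibroblast markers were present, 9 of 10 in treated S5 MEFs and 10 of 10 elsewhere, except that Thy1, a fibroblast surface protein, was below 4 on 3 of the 4 S5 arrays (5.09 on the other). Macrophage and blood cell markers were a feature of WT arrays, where 13 of 14 had a group mean of at least 4, against 3 in S5 groups and 5 or 6 in KO groups. Their mean log2 value was 3.18 and 3.16 on treated and 3.24 and 3.44 on untreated S5 arrays, 4.15 and 4.30 on treated and 4.22 and 3.88 on untreated KO arrays, and 10.98 and 10.97 on treated and 9.41 and 10.84 on untreated WT arrays. Adgre1, Ptprc, Tyrobp, Fcer1g, Aif1, Mpeg1 and Cd52 lay below 4 on all 8 S5 and KO arrays. Of the other lists, at most 1 of 6 endothelial, at most 1 of 6 epithelial and 0 of 5 measured lymphocyte markers reached 4 in any group. The 3′ minus 5′ difference of the Gapdh control probe sets, a measure of RNA integrity, was 1.44 to 1.62 on S5, 0.94 to 1.11 on KO and 0.89 to 1.22 on WT arrays.

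The 10 genes were read by 28 probe sets, between 1 (Ifngr1) and 5 (Il13ra1) for each gene. Of these, 6 lay below 4 in all groups and 22 did not, and for each gene the probe set with the highest mean was above 4 in at least 1 group and stands for the gene below. Fitted singly, 1 of the 28 probe sets rose and 1 fell with growth hormone in S5 MEFs (6.24 percent of all probe sets were called), 1 rose in KO MEFs (0.251 percent) and 7 rose in WT MEFs (3.06 percent), and for 1 the response differed between S5 and WT MEFs (2.12 percent). Levels of different genes are not ranked against each other, since probe sets differ in brightness.

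**Figure D1:**
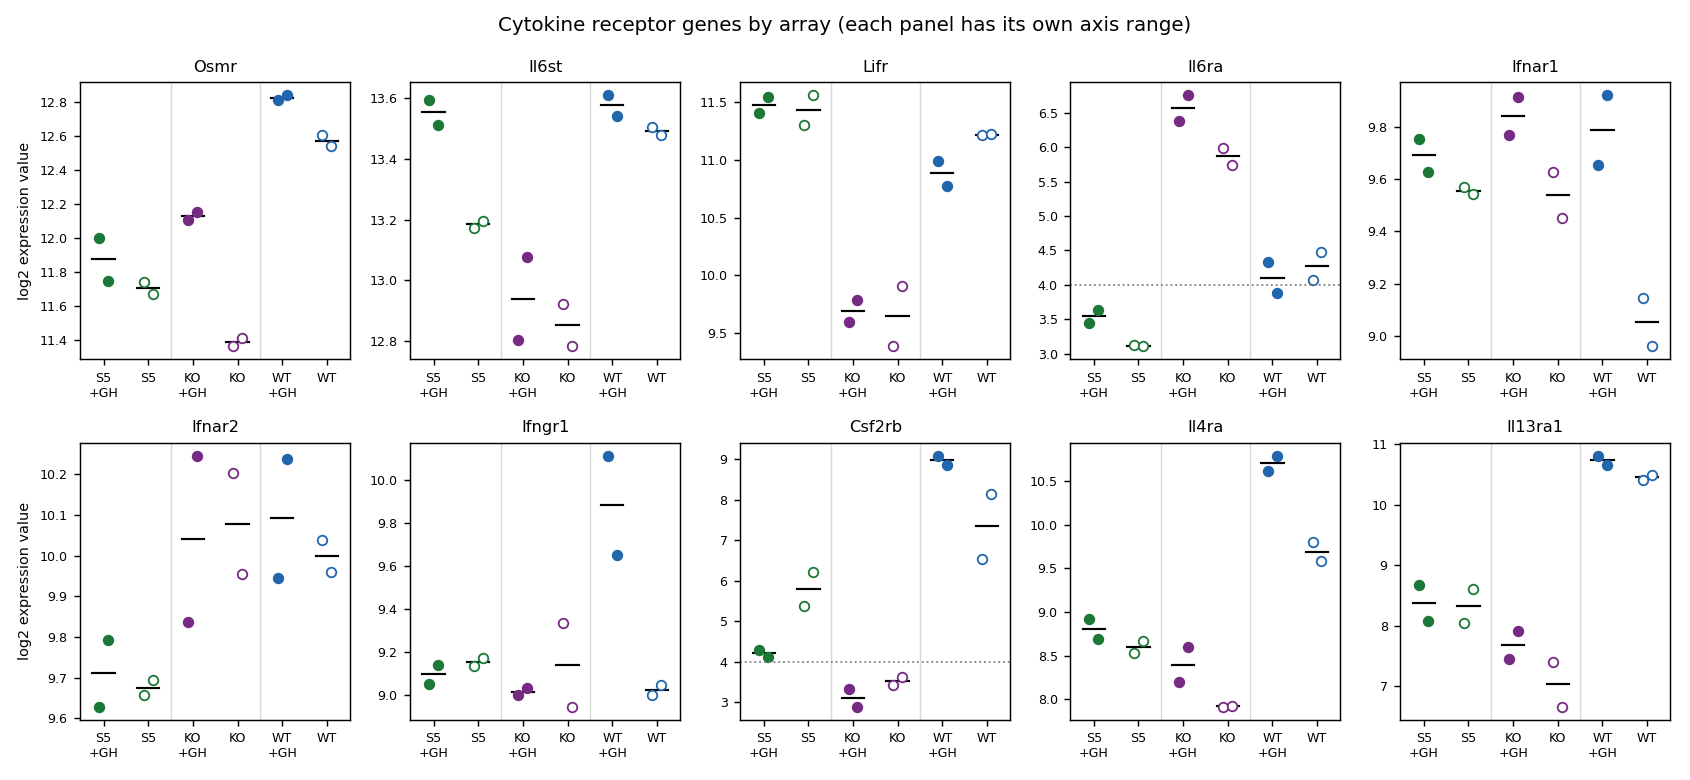
Log2 expression values (y axis) of the 10 receptor genes on each of the 12 arrays, 1 panel for each gene, with groups on the x axis; filled points are arrays with growth hormone, open points arrays without, bars are group means, and the dotted line is the low mode bound of 4. Il13ra1 and Il4ra are highest on the 4 WT arrays, Lifr is lowest on the 4 KO arrays, Il6ra is highest on the 4 KO arrays, and Csf2rb reaches 9.09 on a treated WT array.

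With growth hormone few of these receptors passed limma's test, and those that passed were not the same in KO and WT MEFs. In S5 MEFs 0 of 10 passed (2 had an unadjusted p under 0.05, Il6st and Csf2rb), where 7.88 percent of all genes did, 3.63 percent upward and 4.25 percent downward. In KO MEFs 1 of 10 passed, Osmr, which rose, where 0.308 percent of all genes were called, 0.225 percent upward and 0.0824 percent downward. An unadjusted p under 0.05 was found there for 4 of 10, Osmr, Il6ra, Ifnar1 and Il4ra, all upward, and for 9.89 percent of all genes. In WT MEFs 3 of 10 rose, Ifnar1, Ifngr1 and Il4ra, and 0 fell, where 6.00 percent of all genes were called, 3.06 percent upward and 2.94 percent downward. Among the 11622 genes with a group mean of at least 4, which include all 10 receptors, larger shares were called. They were 12.8 percent in S5, 0.516 percent in KO and 10.3 percent in WT MEFs. The median log2 difference over the 10 genes was 0.09 in S5, 0.20 in KO and 0.27 in WT MEFs, beside -0.02, -0.02 and -0.04 over all genes. Without WT replicate 1 the call of Ifngr1 was lost (log2 difference 0.83). Without WT replicate 2 the calls of Ifnar1, Ifngr1 and Il4ra were all lost (0.64, 0.88 and 0.90). Csf2rb, not called in the main fit, was called there instead (2.44). The macrophage marker mean was higher on the treated WT arrays (10.98 and 10.97) than on the untreated ones (9.41 and 10.84), and its part in the WT rises was not tested.

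The difference between responses passed the test for 0 of the 10 genes in any pair of genotypes. Of all genes, limma called 1.13 percent for S5 minus KO, 2.92 percent for S5 minus WT and 1.27 percent for KO minus WT. An unadjusted p under 0.05 was found for 1 of the 10 genes for S5 minus KO (9.76 percent of all genes), for 4 for S5 minus WT (13.5 percent) and for 6 for KO minus WT (9.10 percent). A receptor called in 1 genotype and not in another is therefore not shown to respond differently between them.

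**Figure D2:**
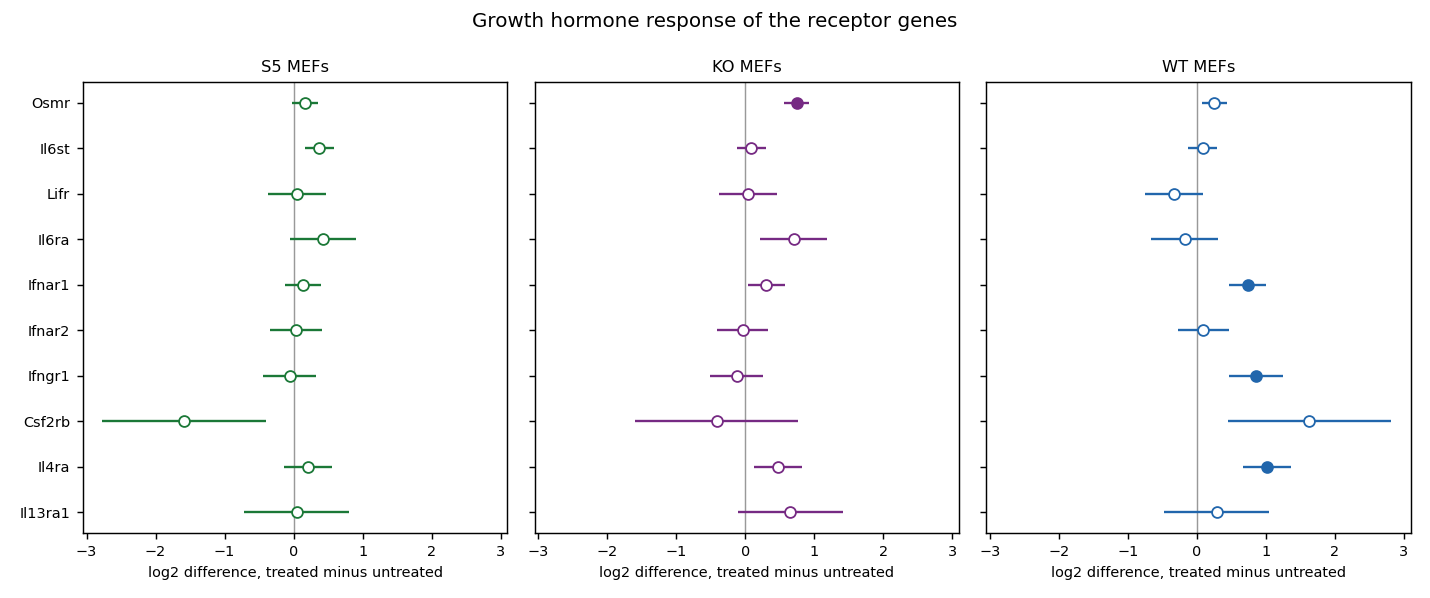
Log2 difference with growth hormone minus without (x axis) for the 10 receptor genes (y axis) in S5, KO and WT MEFs; points are limma estimates from 2 arrays a group, bars are unadjusted 95% intervals, and filled points passed the adjusted threshold of 0.05. No gene passed in S5, Osmr passed in KO, and Ifnar1, Ifngr1 and Il4ra passed in WT.

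Genotype differences were far more common. Among untreated cells, 6 of the 10 genes were higher and 1 lower in S5 than in KO MEFs (27.4 percent of all genes called, 15.5 higher and 11.9 lower), 1 was higher and 6 lower in S5 than in WT MEFs (34.7 percent, 19.2 higher and 15.4 lower), and 2 were higher and 6 lower in KO than in WT MEFs (27.1 percent, 13.9 higher and 13.3 lower). With growth hormone, 2 were higher and 2 lower in S5 than in KO (28.9 percent, 15.0 higher and 13.9 lower), 1 higher and 5 lower in S5 than in WT (36.9 percent, 20.2 higher and 16.7 lower), and 1 higher and 7 lower in KO than in WT MEFs (30.1 percent, 16.3 higher and 13.8 lower). These shares include genes below 4 in all groups, unlike the 10 receptors. Among the 11622 genes with a group mean of at least 4, the shares called were larger. They were 43.3 percent for S5 minus KO, 55 for S5 minus WT and 43.9 for KO minus WT among untreated cells. With the hormone they were 45.9, 58.1 and 48.1 percent. The median log2 difference over the 10 genes among untreated cells was 0.33 for S5 minus KO, -0.59 for S5 minus WT and -0.91 for KO minus WT, beside -0.02, -0.03 and 0.00 over all genes. These comparisons share arrays in pairs, so they are not separate lines of evidence. The macrophage marker values and the Gapdh 3′ minus 5′ differences given above moved with genotype too. Among untreated cells 4 of 10 fibroblast markers were lower in S5 than in KO and than in WT MEFs, Thy1, Pdgfra, Dcn and Pdgfrb. Against WT MEFs 1 was higher in S5, Fn1 (14.46 and 14.47, against 14.34 and 14.36). The remaining markers of the list passed in neither comparison. Dcn, a matrix proteoglycan, read 7.96 and 7.94 in untreated S5 MEFs, against 11.10 and 10.69 in untreated KO and 11.08 and 10.65 in untreated WT MEFs. The endothelial marker Tek was higher in untreated S5 MEFs (9.37 and 9.33) than in untreated KO MEFs, where both arrays lay below 4, and the epithelial marker Krt18 was lower (2.54 and 2.55, against 7.91 and 7.87). The part of these markers and of RNA integrity in the differences was not tested.

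**Figure D3:**
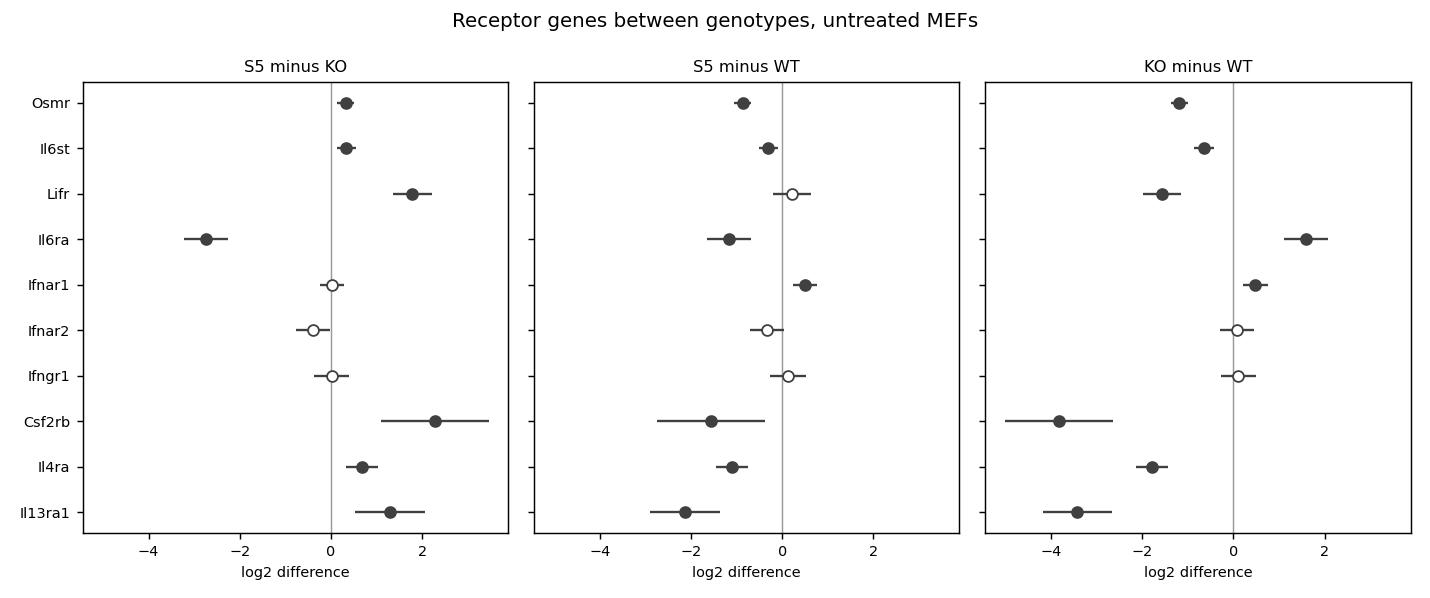
Log2 difference between untreated genotypes (x axis) for the 10 receptor genes (y axis), S5 minus KO, S5 minus WT and KO minus WT; points are limma estimates from 2 arrays a group, bars are unadjusted 95% intervals, and filled points passed the adjusted threshold of 0.05. Il6ra is the only gene called lower in S5 minus KO, and Il13ra1 and Csf2rb show the widest gaps in KO minus WT.

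The gp130 group comes first. Il6st encodes gp130, the signalling chain that interleukin-6, LIF, oncostatin M and several relatives share. Il6st read 13.60 and 13.51 in treated S5 MEFs, against 13.17 and 13.20 in untreated S5 MEFs. It read 12.80 and 13.07 in treated and 12.92 and 12.78 in untreated KO MEFs. In WT MEFs it read 13.61 and 13.54 with the hormone and 13.50 and 13.48 without. Treated S5 arrays thus lay above untreated S5 arrays and among the WT values, and the 4 KO arrays were lowest. The S5 response was 0.37 (SE 0.09) and just missed the threshold (limma adjusted p = 0.0536). Untreated Il6st was lower in KO than in WT MEFs by a log2 difference of -0.64 (SE 0.09, adjusted p = 0.00183, 1.56-fold), and S5 lay between them, 0.33 above KO (adjusted p = 0.0302) and 0.31 under WT (-0.31, adjusted p = 0.034). The S5 minus KO value of untreated cells depended on the probe sets used and was -0.01 (adjusted p = 0.941) with the mean of all 4. With growth hormone Il6st was 1.53-fold higher in S5 than in KO MEFs (adjusted p = 0.00173), and its S5 minus WT difference was -0.02, with a 95% interval of -0.24 to 0.19. With the mean of all 4 probe sets that difference was -0.71 (adjusted p = 0.000221).

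Osmr encodes the oncostatin M receptor chain, which pairs with gp130. It read 12.11 and 12.15 in treated KO MEFs, against 11.36 and 11.41 in untreated KO MEFs. In S5 MEFs it read 12.003 and 11.75 with the hormone and 11.74 and 11.67 without, and in WT MEFs 12.81 and 12.84 with it and 12.61 and 12.54 without. Treated and untreated arrays did not overlap in any genotype, and WT arrays were the highest throughout. The KO rise was 0.74 (SE 0.08, limma adjusted p = 0.02, 1.67-fold), against 0.17 (adjusted p = 0.312) in S5 and 0.25 (adjusted p = 0.128) in WT MEFs. The KO response minus the S5 response ran the same way (S5 minus KO -0.58, adjusted p = 0.0737) but did not pass, nor did KO minus WT (0.49, adjusted p = 0.138). The KO rise was lost in 8 of 22 other settings, with adjusted p-values up to 0.735.

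The level of Osmr followed genotype more firmly than hormone. Untreated Osmr was 2.27-fold lower in KO than in WT MEFs (log2 -1.19, SE 0.08, adjusted p = 5.46e-05) and 1.82-fold lower in S5 than in WT MEFs (adjusted p = 0.000151). S5 minus KO was 0.32 without the hormone (adjusted p = 0.0207) and -0.26 with it (adjusted p = 0.0487), so the order of S5 and KO turned with treatment. The untreated call was lost in 5 of 22 other settings, among them the mean of the probe sets (adjusted p = 0.426). The treated value passed in 3 of 22 other settings only, and the S5 minus KO difference of response, given above, did not pass. A second Osmr probe set, dim in all groups, read 4.86 and 5.82 in treated WT MEFs, against 4.05 and 3.66 in untreated WT MEFs, and taken on its own it just passed (1.49, adjusted p = 0.05 over 45037 probe sets).

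Osmr was the sole receptor of the list to pass the adjusted threshold with growth hormone in KO MEFs, so the bases before its start are shown. They are the 250 bases before the RefSeq transcription start, chr15:6874314-6874563 of GRCm38.p6, on the minus strand, and no base is in capitals because none of the motifs searched was found.
Osmr: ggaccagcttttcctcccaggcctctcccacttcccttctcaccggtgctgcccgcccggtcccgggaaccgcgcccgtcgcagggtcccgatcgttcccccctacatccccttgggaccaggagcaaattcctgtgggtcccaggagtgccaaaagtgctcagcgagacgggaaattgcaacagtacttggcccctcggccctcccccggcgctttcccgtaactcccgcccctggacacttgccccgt

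Lifr encodes the LIF receptor chain, another partner of gp130, and its gene is the neighbour of Osmr on chromosome 15. Lifr read 11.40 and 11.54 in treated and 11.30 and 11.56 in untreated S5 MEFs. It read 9.60 and 9.79 in treated and 9.38 and 9.91 in untreated KO MEFs. In WT MEFs it read 10.99 and 10.78 with the hormone, against 11.21 and 11.22 without. KO arrays were the lowest 4, and the treated WT arrays lay under the untreated ones, although that difference did not pass (-0.33, SE 0.18, adjusted p = 0.37). Lifr was 3.44-fold higher in S5 than in KO MEFs among untreated cells (1.78, SE 0.18, adjusted p = 0.000268) and by the same factor with the hormone (1.78, adjusted p = 0.000252). It was 2.97-fold lower in KO than in WT MEFs without the hormone (adjusted p = 0.000687) and 2.29-fold lower with it (adjusted p = 0.00203). S5 minus WT was 0.21 untreated, with a 95% interval of -0.21 to 0.63, and 0.59 with the hormone (adjusted p = 0.037, lost in 8 of 22 other settings).

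Il6ra encodes the chain that binds interleukin-6 and hands it to gp130. Its values were dim: 3.45 and 3.63 in treated and 3.12 and 3.11 in untreated S5 MEFs, all in the low mode. KO MEFs stood at 6.38 and 6.76 with the hormone and 5.98 and 5.75 without, the highest 4 values. WT MEFs stood at 4.33 and 3.88 with it and 4.07 and 4.48 without. Il6ra therefore ran opposite to Lifr, high where Lifr was low. It was at least 3.64-fold lower in S5 than in KO MEFs among untreated cells (adjusted p = 5.71e-05) and at least 5.93-fold lower with the hormone (adjusted p = 3.24e-05), with S5 values set to 4. It was 3.004-fold higher in KO than in WT MEFs without the hormone (1.59, SE 0.21, adjusted p = 0.00126) and 5.52-fold higher with it (adjusted p = 0.000125). Untreated S5 MEFs were at least 1.21-fold lower than WT MEFs (adjusted p = 0.00364), a call that ended when values below 4 were set to 4 before the fit (adjusted p = 0.417). The hormone difference in KO MEFs, 0.70, did not pass (adjusted p = 0.283), and the second Il6ra probe set lay between 1.95 and 2.04 on every array.

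Among ligands and helper chains of gp130, chosen as a list with earlier results in view, 10 of 14 were measured. With growth hormone 0 changed in S5 (3 had an unadjusted p under 0.05) or in KO MEFs (1 did), and 2 rose in WT MEFs, Il6 and Lif. Over all genes 7.88 percent were called in S5, 0.308 percent in KO and 6.00 percent in WT MEFs. Il6 read 8.10 and 7.29 in treated WT MEFs, against 2.65 and 2.68 in untreated WT MEFs, at least 12.96-fold higher (adjusted p = 3.13e-05), and between 2.52 and 2.64 on all S5 and KO arrays. Lif read 11.04 and 10.95 in treated WT MEFs, against 8.20 and 7.46 in untreated ones (3.16, adjusted p = 0.000582, 8.94-fold). Here the genotypes did differ in response: for Lif S5 minus WT was -2.20 (adjusted p = 0.0199) and KO minus WT -2.84 (adjusted p = 0.0114), and for Il6, whose S5 and KO values are all in the low mode, both differences passed (adjusted p = 0.000272 and 0.000372). The macrophage marker mean was higher on WT arrays than on S5 and KO arrays, and its part in these differences was not tested. Osm, the ligand of Osmr, lay between 2.11 and 2.21 on all arrays. The gp130 ligands Ctf1 and Clcf1 were measured well, Ctf1 3.11-fold and Clcf1 2.96-fold higher in S5 than in KO MEFs among untreated cells (adjusted p = 0.000119 and 0.00202). Cntfr, the CNTF-binding chain, was at least 2.15-fold lower in S5 than in KO MEFs (adjusted p = 8.93e-05), and Il27ra, which pairs with gp130, at least 5.69-fold lower (adjusted p = 0.00129). Il11 lay below 4 on 11 of the 12 arrays, and Csf3r and Lepr, other receptors of this shape, on all of them.

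Among the interferon receptors, Ifnar1 and Ifngr1 rose with the hormone in WT MEFs, and the probe sets of Ifnar2 gave different answers. Ifnar1 encodes a chain of the type I interferon receptor, the partner of Ifnar2. It read 9.65 and 9.92 in treated WT MEFs, against 9.15 and 8.96 in untreated WT MEFs. S5 MEFs stood at 9.75 and 9.63 with the hormone and 9.57 and 9.54 without, and KO MEFs at 9.77 and 9.91 with it and 9.63 and 9.45 without. Untreated WT arrays were the lowest 2 of the 12, and the treated WT arrays overlapped both the treated S5 and the treated KO arrays, which did not overlap each other. The WT rise was 0.73 (SE 0.11, adjusted p = 0.0122, 1.66-fold), against 0.13 (adjusted p = 0.656) in S5 and 0.30 (adjusted p = 0.424) in KO MEFs. Untreated Ifnar1 was 1.42-fold higher in S5 than in WT (adjusted p = 0.0111) and 1.40-fold higher in KO than in WT MEFs (adjusted p = 0.0168), which rests on the same 2 untreated WT arrays. With the hormone S5 minus WT was -0.10 (95% interval -0.36 to 0.17) and KO minus WT 0.05 (95% interval -0.21 to 0.32). Without WT replicate 2 the WT rise had an adjusted p of 0.0601, and without WT_GH replicate 2 one of 0.0576.

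Ifnar2 encodes the chain that binds type I interferons most tightly, and its probe sets disagreed. The brightest read 9.63 and 9.79 in treated and 9.66 and 9.69 in untreated S5 MEFs, 9.84 and 10.25 in treated and 10.20 and 9.95 in untreated KO MEFs, and 9.95 and 10.24 in treated and 10.04 and 9.96 in untreated WT MEFs. By that probe set the hormone difference in WT MEFs was 0.09 (95% interval -0.28 to 0.46), and 0 of 12 comparisons passed limma's test (2 had an unadjusted p under 0.05). The dimmest of the 3 read 8.57 and 8.996 in treated WT MEFs, against 6.41 and 6.45 in untreated WT MEFs. In S5 MEFs it read 7.88 and 7.78 with the hormone, against 6.58 and 6.94 without, and in KO MEFs 6.90 and 7.36 with it, against 6.67 and 6.17 without. Treated arrays lay above untreated ones in each genotype. Fitted on its own it rose 5.11-fold in WT (2.35, SE 0.24, adjusted p = 0.00343) and 2.09-fold in S5 MEFs (1.06, adjusted p = 0.045), and its KO difference of 0.71 did not pass (adjusted p = 0.439). The third read 10.56 and 10.23 in treated WT MEFs, against 8.55 and 9.32 in untreated ones, and rose 2.75-fold (adjusted p = 0.0197). With the hormone the dimmest was 1.94-fold lower in S5 than in WT (-0.96, adjusted p = 0.02) and 3.15-fold lower in KO than in WT MEFs (adjusted p = 0.00256). The third was 2.63-fold lower in S5 (-1.39, adjusted p = 0.00297) and 3.96-fold lower in KO than in WT MEFs (-1.99, adjusted p = 0.000893). Among untreated cells neither passed between S5 or KO and WT MEFs. With the mean of the probe sets in place of the brightest, Ifnar2 rose by 1.301 in WT MEFs (adjusted p = 0.00162). Probe sets may match different transcript forms of a gene, which the probe table does not tell apart.

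The Ifnar2 promoter window was the only 1 of 10 windows, for 9 of the genes, to hold the STAT5-type motif TTCNNNGAA, and it is shown for that reason with the motif in capitals. The window is the 250 bases before the RefSeq start, chr16:91372533-91372782 of GRCm38.p6, on the plus strand, and the match TTCCTGGAA begins 214 bases before the start.
Ifnar2: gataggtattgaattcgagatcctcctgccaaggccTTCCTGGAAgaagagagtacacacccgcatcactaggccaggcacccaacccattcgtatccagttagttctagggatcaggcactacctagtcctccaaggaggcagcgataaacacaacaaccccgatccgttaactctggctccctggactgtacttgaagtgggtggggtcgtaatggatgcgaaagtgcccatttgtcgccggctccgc
The motif reads the same on both strands, and 7.02 percent of the 32851 windows of the RefSeq table held it. GAAANNGAAA, the core of interferon response elements, searched on both strands, was in 0 of the 10 windows and in 2.98 percent of all, and the NF-kB consensus in 0 and in 7.25 percent. A match is a run of letters in this window and no evidence of binding, and no window of Csf2rb was used here.

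Ifngr1, the ligand-binding chain of the interferon gamma receptor, has a single probe set. It read 10.11 and 9.65 in treated WT MEFs, against 9.003 and 9.05 in untreated WT MEFs. S5 MEFs stood at 9.05 and 9.14 with the hormone and 9.14 and 9.17 without, and KO MEFs at 9.0001 and 9.03 with it and 9.33 and 8.94 without. The treated WT arrays were the highest 2 of the 12, and the other 5 groups lay between 8.94 and 9.33. The WT rise was 0.86 (SE 0.16, adjusted p = 0.0276, 1.81-fold), against -0.06 (adjusted p = 0.946) in S5 and -0.12 (adjusted p = 0.938) in KO MEFs. The WT rise was lost in 7 of 22 other settings, with adjusted p-values up to 0.147, among them the fits without WT replicate 1 (0.112), WT replicate 2 (0.0971) and WT_GH replicate 1 (0.0763). With growth hormone Ifngr1 was 1.72-fold lower in S5 than in WT (adjusted p = 0.00716) and 1.82-fold lower in KO than in WT MEFs (adjusted p = 0.00606), while the untreated differences were 0.13 and 0.11 with adjusted p-values of 0.584 and 0.776.

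On chromosome 16 the genes Ifnar2, Il10rb, Ifnar1 and Ifngr2 stand next to each other in this order, and all 4 gave a probe set that rose with growth hormone in WT MEFs. Ifngr2, the signalling chain of the interferon gamma receptor, read 9.99 and 10.34 in treated WT MEFs, against 9.02 and 9.12 in untreated WT MEFs (1.09, adjusted p = 0.0351, 2.13-fold). Il10rb, a chain shared by the interleukin-10 and interferon lambda receptors, read 10.52 and 10.32 in treated WT MEFs, against 10.0045 and 9.95 in untreated ones (0.45, adjusted p = 0.0419, 1.36-fold). For Ifnar2 this holds for the 2 dimmer of its 3 probe sets, fitted on their own. Neither Ifngr2 nor Il10rb passed in S5 MEFs (adjusted p = 0.947 and 0.9) or in KO MEFs (adjusted p = 0.961 and 0.885), and the S5 minus WT differences of response, -1.01 and -0.49, did not pass either (adjusted p = 0.183 and 0.137). Of the 7 interferon ligands and partner chains measured, these 2 rose in WT MEFs, and 0 changed in S5 or KO MEFs (0 had an unadjusted p under 0.05 in each). Over all genes 6.00 percent were called in WT, 7.88 percent in S5 and 0.308 percent in KO MEFs. Over all probe sets fitted singly, 3.06 percent were called in WT MEFs. The ligand genes Ifnb1, Ifna4 and Ifng and the chain Ifnlr1 lay at or below 2.35 on every array. Il10ra, the other interleukin-10 receptor chain, read above 4 on 3 arrays, all WT (5.04 and 5.07 with the hormone, 4.40 without). Macrophage markers were high on these arrays too, and their part was not tested.

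**Figure D4:**
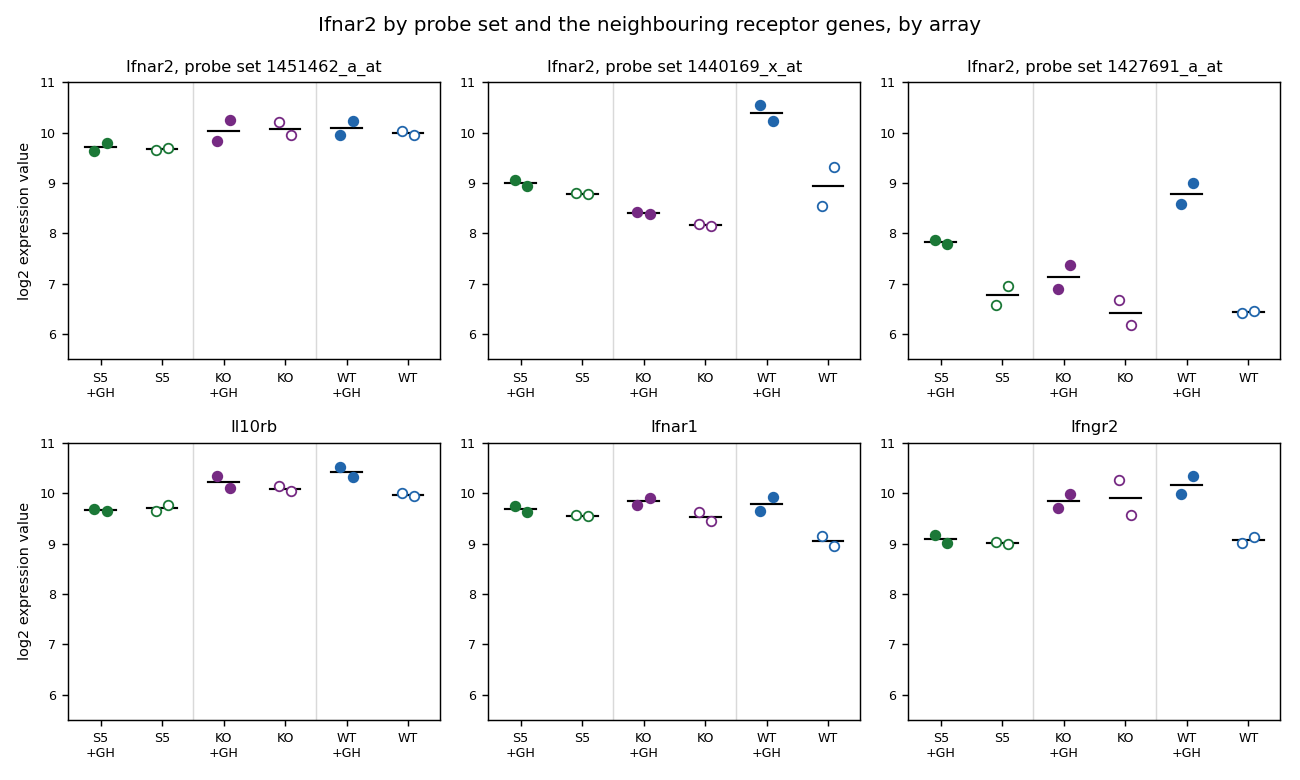
Log2 expression values (y axis) of the neighbouring chromosome 16 receptor genes by array, with groups on the x axis, filled points for arrays with growth hormone, open points for arrays without and bars for group means. In WT MEFs the treated arrays lie above the untreated ones for Ifnar1, Ifngr2 and Il10rb and for the dimmest Ifnar2 probe set (8.57 and 8.996, against 6.41 and 6.45), while the brightest Ifnar2 probe set overlaps.

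Il4ra encodes the chain that binds interleukin-4 and serves both receptor types. It read 10.62 and 10.80 in treated WT MEFs, against 9.80 and 9.58 in untreated WT MEFs. In S5 MEFs it read 8.92 and 8.69 with the hormone and 8.53 and 8.67 without, and in KO MEFs 8.20 and 8.59 with it and 7.91 and 7.92 without. Treated arrays lay above untreated ones in each genotype, and WT arrays were the highest 4. The WT rise was 1.02 (SE 0.15, adjusted p = 0.00999, 2.02-fold), against 0.21 (adjusted p = 0.562) in S5 and 0.48 (adjusted p = 0.304) in KO MEFs. It was lost in 3 of 22 other settings, with adjusted p-values up to 0.0698. Untreated Il4ra was 3.43-fold lower in KO than in WT MEFs (-1.78, SE 0.15, adjusted p = 0.000148), and 2.14-fold lower in S5 than in WT MEFs (adjusted p = 0.000978). With the hormone the gap to WT was 4.97-fold for KO (adjusted p = 3.53e-05) and 3.74-fold for S5 (adjusted p = 5.54e-05). S5 lay above KO among untreated cells (0.68, adjusted p = 0.0119), and with the hormone the difference of 0.41 did not pass (adjusted p = 0.0824). A second probe set read 4.12 and 4.03 in treated WT MEFs, and it and the third lay below 3 on all remaining arrays.

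Il13ra1 encodes the chain that pairs with Il4ra in the type II receptor, through which interleukin-13 acts on fibroblasts. It read 8.67 and 8.07 in treated and 8.04 and 8.61 in untreated S5 MEFs. KO MEFs stood at 7.45 and 7.92 with the hormone and 7.41 and 6.66 without, and WT MEFs at 10.81 and 10.66 with it and 10.41 and 10.49 without. The WT arrays were far above the rest and the KO arrays the lowest. Untreated Il13ra1 was 10.7-fold lower in KO than in WT MEFs (-3.42, SE 0.32, adjusted p = 0.000283) and 4.37-fold lower in S5 than in WT MEFs (adjusted p = 0.00176). With the hormone these gaps were 8.29-fold (adjusted p = 0.00039) and 5.14-fold (adjusted p = 0.000905). Untreated S5 MEFs stood 2.45-fold above KO MEFs (1.29, adjusted p = 0.0221), which did not hold without S5 replicate 2 (adjusted p = 0.129). The hormone difference was 0.05 in S5, 0.65 in KO and 0.28 in WT MEFs, with adjusted p-values of 0.994, 0.623 and 0.641. Of the 4 other probe sets, 3 also had all WT arrays above all others, between 7.56 and 10.02, and the last lay below 3 throughout. A probe set of these fell with growth hormone in S5 MEFs, reading 6.94 and 7.28 in treated and 7.85 and 8.09 in untreated cells (-0.86, SE 0.17, adjusted p = 0.0324). Another of the 3 ran the same way, 6.52 and 7.17 in treated and 7.50 and 7.80 in untreated S5 MEFs, and did not pass. In the remaining one of the 3 treated and untreated S5 arrays overlapped, and the brightest probe set of the gene did not move that way.

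The interleukin-4 receptor genes were on in all groups, while their ligands Il4 and Il13 lay between 1.90 and 2.11 on every array. Il13ra2, a decoy receptor of interleukin-13, lay below 4 on all 12 arrays. Stat6, which this receptor activates, was 1.501-fold higher in S5 than in WT (adjusted p = 0.000432) and 1.33-fold higher in KO than in WT MEFs (adjusted p = 0.0036) among untreated cells, the opposite direction to Il4ra and Il13ra1.

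Csf2rb encodes the common beta chain, which signals for GM-CSF, interleukin-3 and interleukin-5 together with a ligand-binding alpha chain. It had the widest range of the 10 genes. Csf2rb read 4.30 and 4.11 in treated S5 MEFs, against 5.37 and 6.21 in untreated S5 MEFs. KO MEFs lay in the low mode, at 3.32 and 2.87 with the hormone and 3.41 and 3.61 without. WT MEFs stood at 9.09 and 8.86 with the hormone, against 6.54 and 8.15 without. Treated arrays lay under untreated ones in S5 and above them in WT MEFs, and no 2 groups overlapped. Neither hormone difference passed, with -1.59 in S5 (SE 0.50, adjusted p = 0.118) and 1.63 in WT MEFs (SE 0.50, adjusted p = 0.125), nor did S5 minus WT (-3.22, SE 0.71, adjusted p = 0.0699). The untreated WT arrays differed by more than 1 unit, and 1 of them decided the value: without WT replicate 2 the WT difference was 2.44 (adjusted p = 0.0165) and S5 minus WT -4.03 (adjusted p = 0.0073), and without WT replicate 1 they were 0.82 (adjusted p = 0.322) and -2.41 (adjusted p = 0.0555). The spread of these arrays also enters the S5 test, and the S5 difference of -1.59 passed without either of them (adjusted p = 0.0304 each).

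With the hormone the gap of Csf2rb to WT MEFs was the widest among the 10 genes: it was 27.3-fold lower in S5 (adjusted p = 0.000249) and at least 31.4-fold lower in KO than in WT MEFs (adjusted p = 0.000142). Untreated it was at least 10.2-fold lower in KO than in WT MEFs (adjusted p = 0.00134), and S5 stood at least 3.46-fold above KO MEFs (adjusted p = 0.0131). The untreated S5 minus KO call was lost in 4 of 22 other settings. Among them were values below 4 set to 4 before the fit (adjusted p = 0.0518) and the mean of the probe sets (adjusted p = 0.101). Untreated S5 minus WT, -1.55, passed only just (adjusted p = 0.0495) and did so in 6 of 22 other settings. Between the untreated WT arrays Csf2rb and the macrophage marker mean ran the same way. The array with the lower marker mean, 9.41, had Csf2rb at 6.54, and the one with 10.84 had it at 8.15. Between S5 and KO MEFs they ran opposite ways. The marker mean was higher on KO arrays (4.15 and 4.30 treated, 4.22 and 3.88 untreated) than on S5 arrays, while Csf2rb was higher on every S5 array than on any KO array. In S5 MEFs the marker mean was 3.18 and 3.16 with the hormone, against 3.24 and 3.44 without, and Adgre1, Ptprc, Tyrobp and Fcer1g lay below 4. The 3 markers with a group mean of at least 4 in S5 MEFs were Csf1r, Cd14 and Cd68. Csf1r, the receptor of macrophage colony-stimulating factor, read 4.66 and 5.02 in treated S5 MEFs, against 6.29 and 6.87 in untreated S5 MEFs, the same order as Csf2rb, and did not pass (-1.74, adjusted p = 0.11). Cd14 lay between 4.32 and 5.69 and Cd68 between 7.70 and 7.91 on the S5 arrays. In RNA from whole cultures, fewer cells of a type and less RNA per cell cannot be told apart, and the part of macrophage RNA in the values of Csf2rb was not tested.

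Csf2rb2 is the neighbouring paralogue on chromosome 15, which encodes the mouse beta chain for interleukin-3 alone. It read 3.66 and 3.38 in treated and 4.86 and 4.22 in untreated S5 MEFs, 3.17 to 3.26 on KO arrays, and 7.98 and 7.79 in treated and 5.49 and 7.52 in untreated WT MEFs. Its arrays stood in nearly the same order as those of Csf2rb, and since the 2 genes are near copies, cross-reading of their probe sets cannot be told apart from shared levels. A further probe set listed for both genes lay between 1.79 and 1.85 on all arrays, and the second Csf2rb probe set was above 4 on 3 WT arrays only (4.43 and 5.40 with the hormone, 4.13 without). Csf2ra, the GM-CSF-binding chain, lay between 9.14 and 10.16 on all 12 arrays and passed no test between genotypes (limma adjusted p at least 0.205). Il3ra, the interleukin-3-binding chain, was 1.75-fold higher in KO than in WT MEFs among untreated cells (adjusted p = 0.0221).

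**Figure D5:**
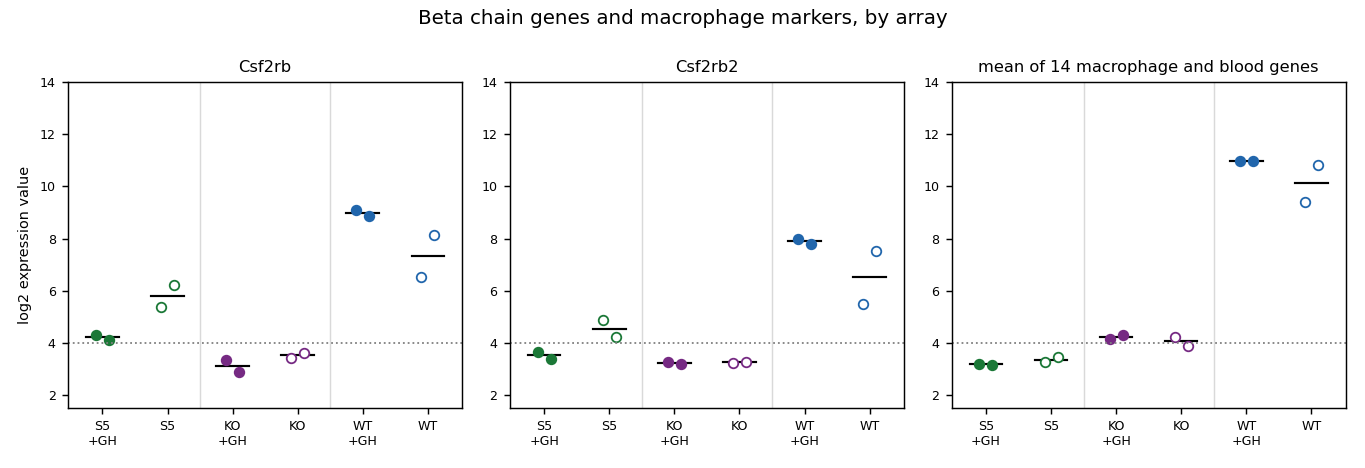
Log2 expression values (y axis) by array of Csf2rb, of its paralogue Csf2rb2, and the mean over 14 macrophage and blood cell marker genes, with groups on the x axis, filled points for arrays with growth hormone, open points for arrays without, bars for group means and a dotted line at 4. WT arrays are the highest in all 3 panels, and the S5 arrays without hormone exceed those with it for both beta chain genes; their marker means are 3.18 and 3.16 with the hormone, against 3.24 and 3.44 without.

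The GM-CSF gene Csf2 rose in WT MEFs. It read 9.82 and 9.66 with the hormone, against 2.21 and 2.20 without, at least 53.3-fold higher (adjusted p = 7.19e-10), and lay between 2.13 and 2.22 on all S5 and KO arrays. The differences of this response from S5 and from KO both passed (adjusted p = 8.56e-09 and 8.67e-09). Il3 and Il5, the other ligands of the beta chain, and the chain Il5ra lay in the low mode on every array. Of 18 measured ligands and chains of the beta and gamma chain families, 4 rose and 1 fell with growth hormone in WT MEFs, 1 fell in S5 MEFs, and 0 changed in KO MEFs (2 had an unadjusted p under 0.05). Over all genes 6.00 percent were called in WT, 7.88 percent in S5 and 0.308 percent in KO MEFs. The largest rises after Csf2 were Il15ra, the interleukin-15-binding chain, which read 8.01 and 7.65 with the hormone, against 4.11 and 4.17 without (12.9-fold, adjusted p = 1.27e-05), and Tslp, an epithelial and stromal cytokine (5.98-fold, adjusted p = 0.0452). Il15 rose 2.70-fold in WT (adjusted p = 0.00875) and fell at least 1.23-fold in S5 MEFs (adjusted p = 0.0189), and these responses differed (-2.55, adjusted p = 0.00469). Macrophage markers were highest on WT arrays, and their part in the WT rises of Csf2, Il15ra, Tslp and Il15 was not tested.

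Of 10 measured kinases and STATs, which act behind the receptors, 4 rose with growth hormone in WT MEFs: Tyk2, the kinase of Ifnar1 and Il13ra1 (1.25, adjusted p = 0.0178, 2.38-fold), Jak2 (0.42, adjusted p = 0.016), and Stat5a and Stat5b (0.77 and 0.34, adjusted p = 0.00259 and 0.0039). In S5 MEFs Stat2, the interferon-specific STAT, rose 2.28-fold (adjusted p = 0.011) and Stat3, the main STAT of gp130, fell 1.40-fold (adjusted p = 0.0152). In KO MEFs 0 changed (2 had an unadjusted p under 0.05). Over all genes 6.00 percent were called in WT, 7.88 percent in S5 and 0.308 percent in KO MEFs. Jak1, which nearly all of these receptors use, was 1.42-fold lower in KO than in WT MEFs (adjusted p = 0.00447) and 1.36-fold higher in S5 than in KO MEFs (adjusted p = 0.00763) among untreated cells.

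Of 18 feedback inhibitors and phosphatases, 6 rose and 1 fell in S5, 1 rose in KO, and 5 rose and 2 fell in WT MEFs. The shares called over all genes were 7.88 percent in S5, 0.308 percent in KO and 6.00 percent in WT MEFs. Cish and Socs2, inhibitors that STAT5 is known to induce, rose 38.1-fold at least and 22.8-fold in S5 MEFs (adjusted p = 4.29e-06 each) and 8.80-fold and 18.7-fold in WT MEFs (adjusted p = 6.46e-05 and 2.7e-06). Socs3, which blocks gp130, rose 5.78-fold in S5 MEFs (adjusted p = 0.00397), and the difference from KO passed (2.61, adjusted p = 0.0377). Ptpn1, a phosphatase that acts on JAK2 and TYK2, was the 1 gene of this list to rise in KO MEFs (0.92, adjusted p = 0.0225), and it rose in S5 (1.10, adjusted p = 0.00184) and WT MEFs (0.70, adjusted p = 0.0115) as well.

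Of Ghr and Epor, receptors of the homodimeric kind, 0 passed the limma test of treated against untreated cells in any genotype (0 had an unadjusted p under 0.05). Ghr lay between 13.90 and 14.12 on all arrays. Among treated cells limma called Ghr higher in S5 than in WT MEFs (14.12 and 14.08, against 13.95 and 13.90), where 36.9 percent of all genes were called.

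The 6 receptors whose group means ranged over at least 1 unit were set beside all other genes by Pearson correlation over the 12 arrays, among 11161 genes. The arrays share 3 cell preparations, so high values are common, and no p is given. Nearest to Osmr were Ak4 (r = 0.99), Grwd1 (0.96) and Ppil1 (0.96), and nearest to Lifr were Hoxa9 (0.99), Hoxa10 (0.98) and Npnt (0.98). Il6ra was closest to Dubr, Zfp385a and Dnm1 (0.98 each). Csf2rb was closest to Rtp4 (0.97), its paralogue Csf2rb2 (0.97) and Ptx3 (0.96), Il4ra to Ccnyl1 (0.98), Nup93 (0.97) and Pvr (0.97), and Il13ra1 to Nt5e (0.99), Nuak2 (0.98) and Alg8 (0.98). Within the 10 genes, Il4ra and Il13ra1 ran most closely together (r = 0.95), and Il6ra and Lifr ran most strongly against each other (r = -0.93).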

How the data were processed

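RNA from MEFs was measured on 12 Affymetrix expression arrays, 2 in each of 6 groups taken from the sample titles. The deposited values hold 45101 probe sets and were read as log2 expression values from their range of 0.99 to 15.95, since no label states the scale; GCOS and RMA are listed in the submitters' processing notes, without settings. The sources used here name no genome build and no correction for probe base composition.

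Gene names are those of the platform annotation. Tests by gene left out 64 control probe sets, 932 that name several genes and 9160 that name no gene; 34945 remained for 18193 genes, of which 18031 were found in the RefSeq gene table (GRCm38.p6), and in 6571 genes all groups lay below 4. The probe set with the highest mean stands for a gene. The tests are those of limma 3.58.1 in R 4.3.3, from 1 fit with a mean for each group (6 residual and 1.2 prior degrees of freedom), two-sided p-values adjusted over all genes by Benjamini-Hochberg at 0.05, in 12 comparisons. Probe sets fitted on their own were adjusted over 45037. SEs are from the fit, and the number of arrays limits precision. A group with both arrays below 4 was set to 4 for a fold, given as "at least". The fit was tested on simulated data.

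The 10 receptor genes, the lists (gp130, interferon, beta and gamma chain, homodimeric receptors, JAK and STAT genes, feedback inhibitors, cell markers) and the tests were chosen with earlier results of these data known. All 28 receptor probe sets enter the counts by probe set, but values of some dimmer ones are not printed. Other genes are ligands and partner chains, up to 4 list members with the smallest adjusted p, and the 3 genes most correlated with each receptor. A further gene list is not reported here. Promoter windows were read from the RefSeq table. Alternatives were the mean of probe sets, every probe set alone, fewer groups in the fit, a replicate block, array weights, a trended prior, quantile normalization, median centring, a filter and a floor on low values, and leaving out each array.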

Additional observations from a re-analysis of the deposited data

Results flagged for a closer look

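A dim Il4ra probe set, which does not stand for the gene, responded differently to growth hormone in S5 and WT MEFs when each probe set was fitted on its own (S5 minus WT -1.17, limma adjusted p = 0.0235 over 45037 probe sets). It read 2.74 and 2.65 in treated and 2.53 and 2.77 in untreated S5 MEFs, and 4.12 and 4.03 in treated and 2.74 and 2.98 in untreated WT MEFs. Only the treated WT arrays lay above the low mode, by at most 0.12, and with values below 4 set to 4 the difference between responses was -0.08. The brightest Il4ra probe set gave -0.81 for the same difference, which did not pass (adjusted p = 0.113).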

How the results depend on the processing

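Of 44 calls of a receptor gene in a comparison, 23 were kept under all 22 alternatives; of 2640 values of single genes, 2493 kept direction and side of the threshold, 106 lost and 40 gained a call, and 1 reversed (Il6st, untreated S5 minus KO, -0.011 with the mean of its probe sets). The cause of these changes was not tested.

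Growth hormone in S5 MEFs called 1 gene with the mean of probe sets or a trended prior and 2 with array weights, against 0. In KO MEFs the 1 call became 0 with the mean of probe sets, with only the groups compared in the fit or with array weights. In WT MEFs 3 calls became 0 with only the groups compared. For differences between responses, 0 became 1 for S5 minus KO with median centring, for S5 minus WT with the mean of probe sets, array weights or the filter on low values, and for KO minus WT with the mean of probe sets. Untreated S5 minus KO had 4 calls with the mean of probe sets, against 7.

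Leaving out 1 array gave 0 to 1 calls for growth hormone in S5, 0 to 1 in KO and 1 to 4 in WT MEFs, and 0 to 1 for each difference of responses. Without WT replicate 2 the WT calls of Ifnar1, Ifngr1 and Il4ra were all lost, and Csf2rb was called in their place (log2 difference 2.44). Without WT_GH replicate 2 the calls of Ifnar1 (0.60) and Il4ra (0.93) were lost. Untreated S5 minus KO had 2 to 7, S5 minus WT 4 to 6 and KO minus WT 7 to 8; with the hormone they had 3 to 4, 5 to 6 and 8 to 8.

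With a replicate block, calls were lost for untreated Il6st in S5 minus KO (adjusted p = 0.0511) and S5 minus WT (0.0558), untreated Csf2rb in S5 minus WT (0.0587) and treated Osmr in S5 minus KO (0.0615). Counts were then 6, 5 and 3, and other counts did not change. Same-numbered arrays did not deviate together (correlations of -0.34 to 0.16 over 15 pairs of groups), so the numbers were not taken as a pairing. The lowest, -0.34, was for KO with and without growth hormone, where arrays of unlike number deviated together. Its part in the KO responses was not tested.

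Median centring moved the share of higher calls over all genes to 32.2 percent, against 46.1, for growth hormone in S5 MEFs, and to 37.2 percent, against 51.8, for treated S5 minus KO; the median difference over all genes was then -0.11 in both. With 2 arrays a group, values in the low mode are compressed and small differences cannot be told from 0.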
